A study of Mus musculus with 40 samples.

Results

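The genes described are 10 antimicrobial and host defense genes known from gut epithelium: Reg3b, Reg3g, Duox2, Duoxa2, Dmbt1, Lypd8, Pigr, Saa1, Saa3 and Lyz1. They were taken by symbol, matched to Ensembl identifiers, from the 45706 genes of the deposited tables, and all 10 were found. RNA had been sequenced from sorted cells of mouse colon tumors, of healthy colon and of blood, in 40 libraries that form 10 groups of 4. Epithelial cells were sorted as CD45-negative, EpCAM-positive and stromal cells as CD45-negative, EpCAM-negative. Neutrophils were Ly6G-positive, Ly6C-low and monocytes Ly6G-negative, Ly6C-high. Tumor-bearing mice carried Cdx2CreERT2 and Apc fl/fl on a strain labelled as a mix of C57Bl6 and Sv, with a number after Sv that differs between samples. They had received tamoxifen at 25 mg/kg at 8 to 10 weeks of age. Healthy mice were C57Bl6, with no transgene and no agent, and their age is not labelled. Tumor, genotype, tamoxifen and strain therefore cannot be told apart in any comparison with healthy mice. Sex may differ as well and entered no fit. Xist, a transcript of female cells, was at 0.0204, 0.0194, 0.0413 and 46.8 RPKM in tumor epithelial replicates 1 to 4. In healthy epithelial replicates 1 to 4 it was at 34.6, 15.2, 27.6 and 6.68 RPKM. Stromal replicates 1 to 4 had Xist at 0.0528, 51.6, 0.0315 and 0.0448 RPKM in tumor and 12.8, 0.146, 24.1 and 41.1 RPKM in healthy colon. The Cre is driven by Cdx2, a gene of intestinal epithelium, so Apc deletion was directed to epithelial cells. Library titles name the animal, some animals gave several cell types, and some blood libraries pooled 2 animals.

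The gut surface is defended by secreted proteins that keep bacteria away from the epithelium. C-type lectins of the Reg3 group kill or bind bacteria, mucus and its binding partners form a barrier, the polymeric immunoglobulin receptor carries IgA into the lumen, and dual oxidases release hydrogen peroxide at the apical membrane. Several of these genes are known to be induced by microbes and by interleukin 22 through Stat3, while lysozyme and serum amyloid A are also products of myeloid cells.

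Reg3b (ENSMUSG00000071356, chr6:78370657-78373466 of mm10, plus strand) and Reg3g (ENSMUSG00000030017, chr6:78466269-78468872, minus strand) lie 92803 bases apart. Among the likeness scores over the 40 libraries, each had the other as its closest gene, with a Pearson r of 0.960 on log2(RPKM + 1). That correlation was over libraries that share cell type, depth and carried-over RNA. The 250 bases before the RefSeq start (build GRCm38.p6) are shown for this pair because the genes moved together, with a match to TTCNNNGAA, the spacing bound by STAT factors, in capitals for Reg3b, and a match to the NF-kB consensus in capitals for Reg3g. The Reg3b window is chr6:78370635-78370884 on the plus strand and that of Reg3g is chr6:78468875-78469124 on the minus strand.
Reg3b: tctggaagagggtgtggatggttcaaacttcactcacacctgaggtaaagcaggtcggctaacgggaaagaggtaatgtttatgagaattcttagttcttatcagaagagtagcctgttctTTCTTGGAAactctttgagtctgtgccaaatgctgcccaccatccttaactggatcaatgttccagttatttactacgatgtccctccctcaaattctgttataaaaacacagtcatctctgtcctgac
Reg3g: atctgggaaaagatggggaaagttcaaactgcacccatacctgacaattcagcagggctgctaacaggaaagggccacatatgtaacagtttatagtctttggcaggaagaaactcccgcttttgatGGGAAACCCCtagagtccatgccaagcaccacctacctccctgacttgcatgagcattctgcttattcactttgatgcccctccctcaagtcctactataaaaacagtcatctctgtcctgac
In a global alignment, 173 of 247 aligned bases were identical (70%), against 115 to 144 identical bases in the 35 other pairs of member promoters. The TTCNNNGAA match in Reg3b begins 129 bases before the start and reads TTCTTGGAA. Such a match was found in 1 of the 9 members with a promoter sequence and in 7.02% of 32851 RefSeq promoter windows of that length, both strands searched. The NF-kB consensus was found in 1 of the 9, beginning 123 bases before the Reg3g start as GGGAAACCCC, and in 7.25% of all windows. A looser NF-kB pattern, tried first, is not reported. These matches describe letters only.

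The other members lie in separate places, with 1 more close pair. Duox2 (ENSMUSG00000068452, chr2:122279247-122298449, minus strand) and Duoxa2 (ENSMUSG00000027225, chr2:122298900-122302885, plus strand) start 451 bases apart and point away from each other. Lypd8 (ENSMUSG00000013643) is at chr11:58379043-58390728 on the plus strand, Pigr (ENSMUSG00000026417) at chr1:130826684-130852249 on the plus strand, and Dmbt1 (ENSMUSG00000047517) at chr7:131032053-131121630 on the plus strand. Saa1 (ENSMUSG00000074115, chr7:46740497-46742980) and Saa3 (ENSMUSG00000040026, chr7:46711998-46715700) are 24797 bases apart on the minus strand. Lyz1 (ENSMUSG00000069515, chr10:117287797-117292868, minus strand) is 5476 bases from Lyz2. Of the 50-base stretches of the members' transcripts, 31.1% of those of Saa1 were also found in Saa2, 16.1% of those of Lyz1 in Lyz2, 6.05% of those of Duox2 in Duox1 and 41.1% of those of Duoxa2 in the overlapping, oppositely oriented Duoxa1. How reads that map to several genes were counted, and whether strand was used, is not given in the sources used here, so values of these 4 genes may include reads of the named neighbor.

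Counts on genes ranged from 10717873 to 38002939 per library, with a median of 16338416, and mitochondrial genes took 5.34% to 83.9% of them, the highest share being in healthy epithelial replicate 4. Several libraries held RNA of another sorted type. The median level of 12 epithelial markers, as a percentage of its mean in tumor epithelial cells, was 93.9%, 45.1%, 20.5% and 12.2% in tumor stromal replicates 1 to 4. In tumor neutrophils it was 83.9%, 16.2%, 17.5% and 4.90%, and in tumor monocytes 0.902%, 20.8%, 3.43% and 3.04%. Healthy stromal replicate 4 stood at 13.2%, the other healthy stromal libraries were at or below 0.563%, and no blood library was above 0.351%. Tumor neutrophil replicate 1 also stood apart in its neutrophil markers, at 16.5% of the tumor neutrophil mean against 116% to 140% in the others. In tumor stromal replicates 1 to 4 neutrophil markers were at 0.599%, 0.180%, 18.2% and 8.67% of that mean, against 0.122% to 0.616% in healthy stromal cells. Monocyte and macrophage markers there were at 8.08%, 6.39%, 12.3% and 13.2% of the tumor monocyte mean. In healthy stromal cells they were at 0.557% to 8.70%. The stromal label held for healthy cells, where 6 fibroblast markers summed to 355 to 2010 RPKM, but in tumor stromal cells they summed to 5.97 to 24.0 RPKM. In these sorted populations a lower share of a cell type and less RNA per cell cannot be told apart.

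**Figure D1:**
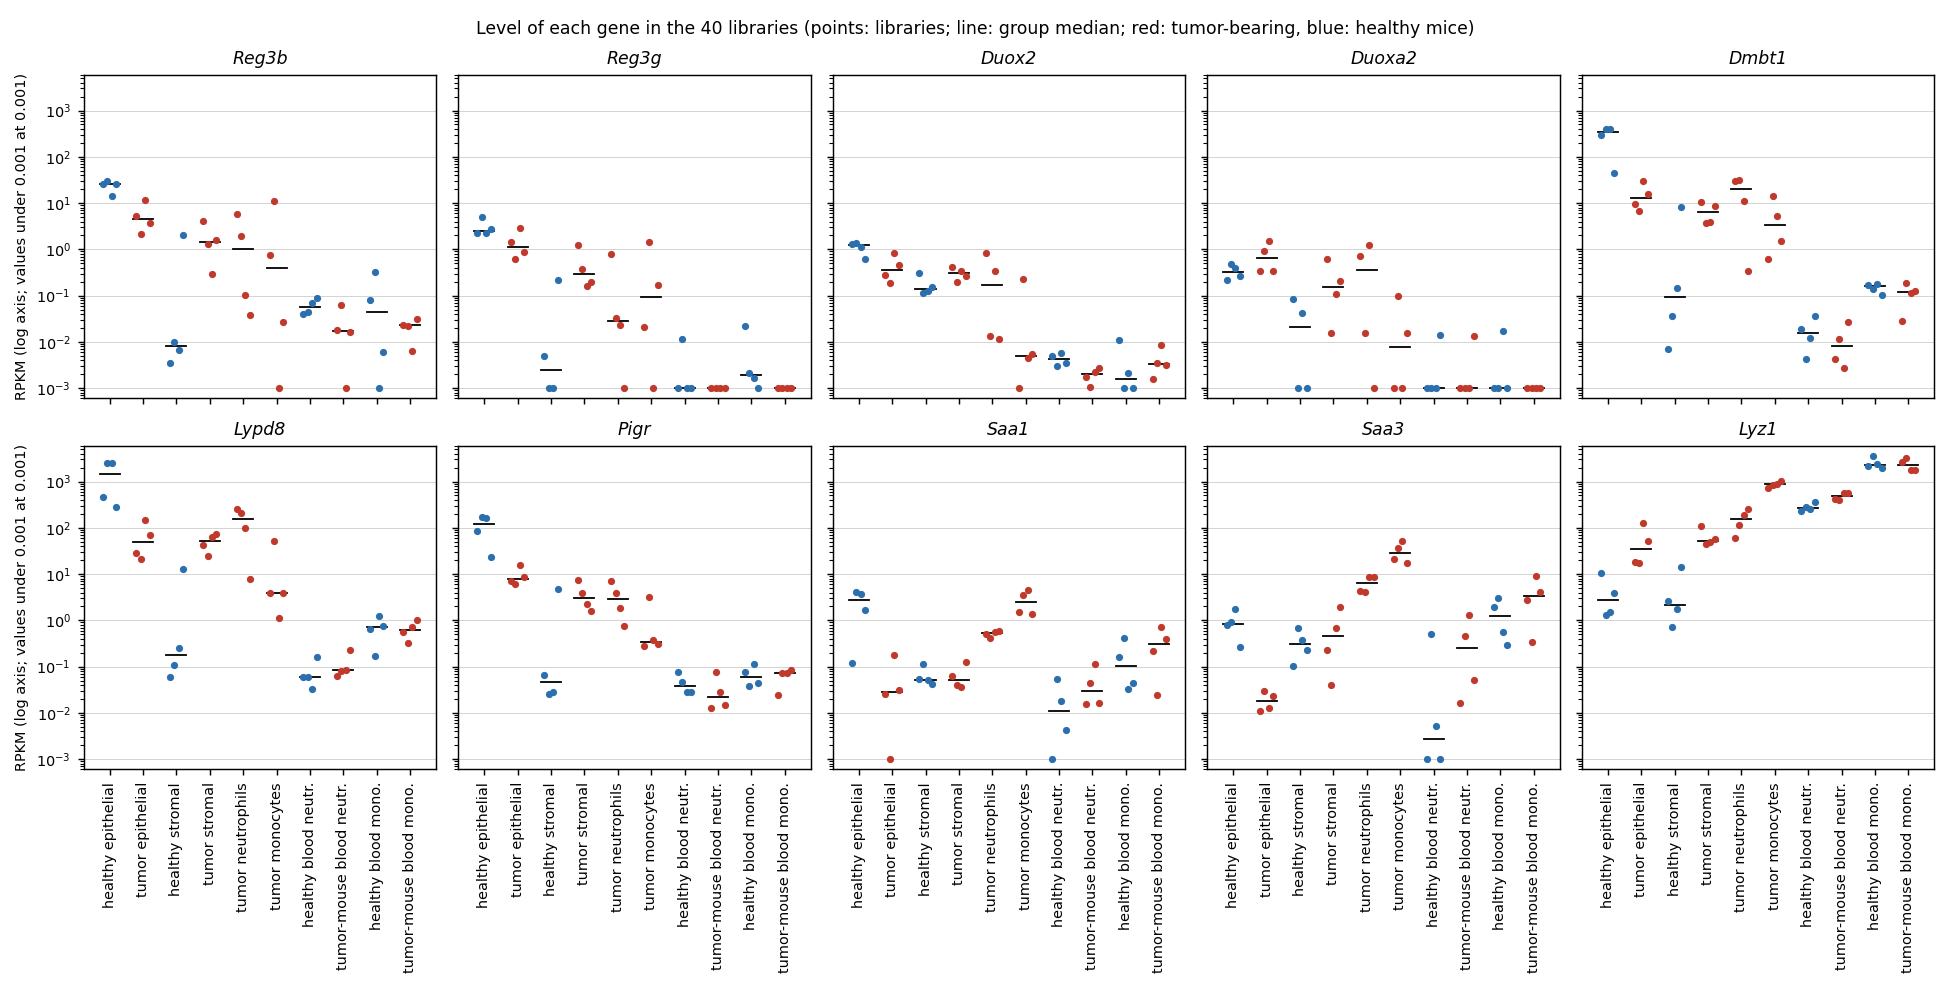
Level of each of the 10 genes in RPKM (log axis, values under 0.001 drawn at 0.001) in every library of the 10 groups, with 1 point per library and a line at the group median. Lypd8, Dmbt1 and Pigr are highest in healthy epithelial cells, Saa3 in tumor monocytes and Lyz1 in blood monocytes.

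In healthy colon, 8 of the 10 genes were higher in epithelial than in stromal cells, by a log2 fold change of 2.23 to 9.43 (edgeR quasi-likelihood test, 4 against 4 libraries). A gene was called where its Benjamini-Hochberg adjusted p was under 0.05 and its absolute log2 fold change above 1.5, a rule that called 30.9% of the 18468 genes tested in this comparison and 11.5% of them higher in epithelial cells. Lypd8, a protein on the apical surface that binds flagellated bacteria, was the most abundant, at 463, 2536, 2497 and 282 RPKM in epithelial replicates 1 to 4. It was at 0.0607, 0.108, 0.249 and 13.1 RPKM in stromal replicates 1 to 4, and the only stromal library above 1 RPKM was replicate 4. The difference was 9.43 on the log2 scale (standard error 2.04, edgeR adjusted p = 0.00531). Dmbt1, a scavenger receptor cysteine-rich protein that aggregates bacteria, averaged 284 ± 167 RPKM (SD, n = 4) in epithelial cells, and Pigr, the receptor that transports IgA, 110.6 ± 69.7 RPKM. Reg3b stood at 24.0 ± 7.08 RPKM, Reg3g at 3.07 ± 1.34, Duox2 at 1.11 ± 0.342 and Duoxa2, the maturation factor that Duox2 needs, at 0.338 ± 0.119. For these 4 genes and for Lypd8, Dmbt1, Pigr and Saa1, every healthy epithelial library lay above every healthy stromal library, which held for 2.36% of 40249 genes. Saa1 was not kept by the filter on low counts, and Lyz1 was not called (1.37 on the log2 scale, standard error 1.09, with an adjusted p of 0.361 from edgeR). Without stromal replicate 4, which held the epithelial markers named above, all 10 genes were called, Lyz1 at 2.98 with an edgeR adjusted p of 0.0474. Over all genes, leaving out 1 library at a time called 5249 to 7014, against 5702 with all libraries. Saa3 lost its call without epithelial replicate 3, stromal replicate 1 or stromal replicate 3, with edgeR adjusted p values of 0.0672, 0.0542 and 0.0588, and in limma on log2(RPKM + 1) and log2(RPKM + 0.1) and the edgeR fit of all 40 libraries (adjusted p = 0.0995, 0.109 and 0.0909). In stromal replicate 4 Dmbt1, Pigr, Reg3b and Reg3g stood at 8.11, 4.69, 2.08 and 0.223 RPKM.

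In tumor epithelial cells, 6 of the 8 genes tested were lower than in healthy epithelial cells: Lypd8, Dmbt1, Pigr, Reg3b, Duox2 and Reg3g. None was called higher by edgeR or DESeq2 and 1, Lyz1, by limma-voom. Duoxa2 and Lyz1 did not pass in edgeR, in which 7 of the 8 had an unadjusted p under 0.05, and Saa1 and Saa3 were not kept by the filter, which requires enough counts in a group. The share of all 16085 genes tested that was called lower was 7.88%, and 7.52% were called higher. RPKM ranges did not overlap for 5 of the 10 genes in the lower direction (1.45% of 39277 genes) and for Lyz1 in the higher one (11.7%). The median log2 fold change was -2.83 over the 8 genes and -0.01 over all genes tested.

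Among the genes kept by the filter, the largest falls were those of Lypd8, Dmbt1 and Pigr. Lypd8 was at 28.6, 21.5, 145.5 and 70.6 RPKM in tumor epithelial replicates 1 to 4, against the healthy values of 282 to 2536 RPKM given above. All 4 tumor libraries lay below all 4 healthy ones, and within the healthy group replicates 2 and 3 were far above replicates 1 and 4. Lypd8 fell by 4.96 on the log2 scale (standard error 0.625, edgeR adjusted p = 3.5e-04). Dmbt1 was at 9.61, 6.65, 29.6 and 15.9 RPKM in tumor and at 291, 404, 397 and 45.4 RPKM in healthy epithelial cells. The groups did not overlap, and the change was -4.71 on the log2 scale (standard error 0.406, edgeR adjusted p = 4.4e-05). Pigr, at 7.0, 6.26, 15.6 and 8.62 RPKM in tumor and 85.2, 171, 162 and 23.6 RPKM in healthy cells, fell by 4.06 (standard error 0.250, edgeR adjusted p = 1.2e-05). Again no tumor library reached the lowest healthy library. These 3 genes were called in every alternative fit and without each library in turn, with healthy epithelial replicate 4, the library with the highest mitochondrial share, always the lowest of its group.

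The Reg3 genes were lower by less. Reg3b was at 5.24, 2.11, 11.6 and 3.69 RPKM in tumor epithelial cells and at 26.2, 30.6, 14.0 and 25.3 RPKM in healthy ones, a fall of 3.38 on the log2 scale (standard error 0.680, edgeR adjusted p = 0.00501). The highest tumor library remained under the lowest healthy library. Reg3g was at 1.42, 0.616, 2.94 and 0.882 RPKM in tumor and 2.23, 5.05, 2.22 and 2.78 RPKM in healthy cells. Here tumor replicate 3 lay above healthy replicates 1, 3 and 4, so the groups overlapped. Reg3g fell by 2.21 (standard error 0.605, edgeR adjusted p = 0.0244), and this call was lost without tumor replicate 1 (edgeR adjusted p = 0.0578), 2 (0.0695) or 4 (0.0752) or healthy replicate 4 (0.0600). In the edgeR fit of all 40 libraries neither Reg3b (edgeR adjusted p = 0.124) nor Reg3g (0.318) was called, and limma on the 2 RPKM scales did not call Reg3g (limma adjusted p = 0.177 and 0.229). The RPKM of Reg3g relative to Reg3b was 0.239 to 0.292 in the tumor and 0.0854 to 0.165 in the healthy epithelial libraries, ranges that do not overlap.

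Of the dual oxidase and its maturation factor, only the oxidase was called. Duox2 was at 0.277, 0.189, 0.831 and 0.449 RPKM in tumor epithelial cells and at 1.33, 1.37, 1.15 and 0.623 RPKM in healthy ones, with tumor replicate 3 above healthy replicate 4. It fell by 2.28 on the log2 scale (standard error 0.417, edgeR adjusted p = 0.00293). The call was lost in the edgeR fit of all 40 libraries (edgeR adjusted p = 0.113) and in limma on log2(RPKM + 1) and log2(RPKM + 0.1) (limma adjusted p = 0.104 and 0.147). Duoxa2 was at 0.345, 0.944, 1.53 and 0.348 RPKM in tumor and 0.215, 0.476, 0.396 and 0.266 RPKM in healthy cells, from 11 to 122 counts per library. Its log2 fold change was 0.22 (standard error 0.666, edgeR adjusted p = 0.852), and the ratio of Duoxa2 to Duox2 was 0.776 to 4.99 in tumor libraries against 0.162 to 0.427 in healthy ones. No tumor library's ratio fell within the healthy range, and reads of Duoxa1, which overlaps Duoxa2, may be part of it.

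The serum amyloid genes were near the lower limit in tumor epithelial cells. Saa3, an acute phase protein made in gut epithelium and macrophages, had 1 count or none in each tumor epithelial library and 14 to 47 counts, or 0.262 to 1.77 RPKM, in healthy ones. It was at least 16.5-fold lower in tumor epithelial cells, with 3 counts per library as the floor. Saa1 was at 0 to 0.176 RPKM in tumor and at 0.121, 4.12, 3.80 and 1.65 RPKM in healthy epithelial cells, so healthy replicate 1 lay within the tumor range. When no filter was applied, both were called lower, Saa1 at -6.10 (edgeR adjusted p = 0.00340) and Saa3 at -5.91 (7.5e-04), larger falls than that of Lypd8.

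Lyz1, the lysozyme of Paneth cells, was measured higher in tumor epithelial cells, at 18.4, 17.1, 129.8 and 50.8 RPKM against 10.71, 1.30, 1.52 and 3.94 RPKM. The groups did not overlap, but the log2 fold change of 2.27 (standard error 0.888) did not pass the test (edgeR adjusted p = 0.0959). It was called by limma-voom (log2 fold change 3.44, adjusted p = 0.0124). Monocyte and macrophage markers were at 0.312%, 0.386%, 1.60% and 1.39% of their myeloid reference mean in tumor epithelial replicates 1 to 4 and at 0.208% to 0.680% in healthy epithelial libraries, and Lyz1 was highest in the 2 tumor libraries with the most. Their part in the result was not tested.

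**Figure D2:**
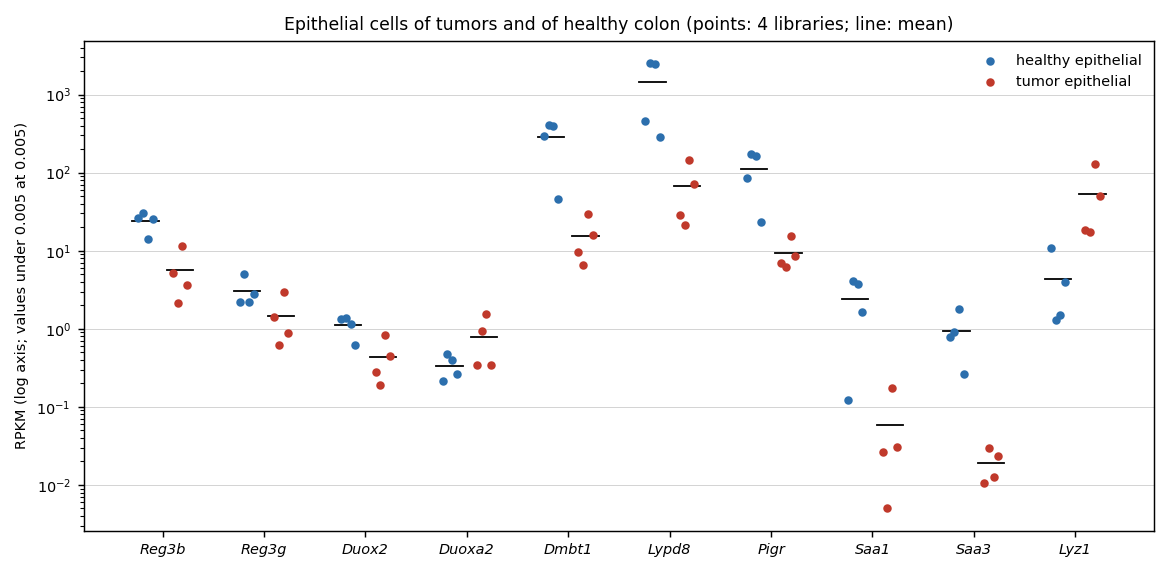
RPKM (log axis, values under 0.005 drawn at 0.005) of the 10 genes in 4 healthy (blue) and 4 tumor (red) epithelial libraries, with lines at the means. Tumor points lie below all healthy points for Lypd8, Dmbt1, Pigr, Reg3b and Saa3 and above them for Lyz1, while those of Reg3g, Duox2, Duoxa2 and Saa1 overlap.

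The scale used bears on the smaller changes. On log2(RPKM + 0.1) of the deposited values, the median of all genes tested was 0.57 higher in tumor than in healthy epithelial cells, whereas after TMM scaling of the counts it was -0.01. On the RPKM scale the changes of Lypd8, Dmbt1, Pigr and Reg3b were -4.25, -4.01, -3.29 and -2.28, those of Duox2 and Reg3g -1.27 and -1.15, and that of Duoxa2 0.84. Relative to the median shift, each direction was the same as in the count fit. In an exact permutation test of mean RPKM (2-sided, 70 arrangements of 4 against 4, smallest possible p 0.0286), Lypd8, Dmbt1, Pigr, Reg3b, Saa3 and Lyz1 reached p = 0.0286, the smallest p this design allows. Duox2 and Saa1 gave exact p = 0.0571, Reg3g 0.114 and Duoxa2 0.200.

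Of 52 other genes in 7 lists of gut defense, 37 were tested in epithelial cells, 15 were called lower and 4 higher in tumor. In the Reg family, both tested genes fell, Reg3a by 3.21 and Reg4 by 2.47 on the log2 scale. Among mucus and goblet cell genes, 6 of 9 fell: Clca1, a mucus-processing protease, by 6.84, the bacteria-binding lectin Zg16 by 6.68, the gel-forming mucin Muc2 by 4.78 (24.4 ± 15.5 against 491 ± 339 RPKM, SD, n = 4 each), Retnlb by 4.19, Tff3 by 3.59 and Fcgbp by 2.97. Pla2g2a, a secreted bactericidal phospholipase, rose by 6.65 (standard error 1.06, edgeR adjusted p = 0.00130), at 48.0 ± 10.9 RPKM in tumor and 0.326 ± 0.578 RPKM in healthy cells. C57BL/6 mice are known to carry a disrupted Pla2g2a, and strain and tumor cannot be told apart here. Among the oxidases 3 of 4 tested genes fell: Nox1 by 3.24, Noxa1 by 1.99 and Duox1 by 1.84. Both pentraxins Mptx1 and Mptx2 were lower, by 4.38 and 2.93.

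Besides Pla2g2a, the genes that rose were Lcn2, Ltf and Socs3. Lcn2, which sequesters bacterial siderophores, rose by 4.95 (standard error 1.10, edgeR adjusted p = 0.00851), from 0.334 ± 0.575 to 18.9 ± 12.5 RPKM. Lactoferrin, Ltf, stood at or under 3 counts in each healthy library, which makes the tumor level at least 22.3-fold higher (edgeR adjusted p = 4.8e-04). Neutrophil markers were at or below 0.0620% of the tumor neutrophil mean in every tumor epithelial library. In the pathway known to induce Reg3 and Saa genes, Socs3, a Stat3 target, rose by 3.19 (edgeR adjusted p = 0.00193), while the adaptor Myd88 and the receptor chain Il17rc fell by 1.73 and 1.70. Stat3 itself was at 5.71 ± 1.27 RPKM in tumor and 1.30 ± 0.647 RPKM in healthy cells, with a log2 fold change of 1.498 that lies just under the threshold (edgeR adjusted p = 9.8e-04). The receptor Il22ra1 did not pass (log2 fold change -1.43, edgeR adjusted p = 0.106). The IgA chains Jchain and Igha, whose product Pigr transports, were not called, with log2 fold changes of -6.08 and -5.46 (edgeR adjusted p = 0.0678 and 0.137) while lymphoid and plasma cell markers summed to 14.8 RPKM in healthy replicate 4 and to at most 3.53 RPKM in the other healthy libraries. The 7 lists contain no member, and S100a8, S100a9 and Lyz2 were tested without a call. Of the 12 epithelial markers, 6 were called lower and none higher. Krt20 fell by 3.88 and Vil1 by 1.57, whereas Krt18, at 40.1 ± 12.8 RPKM in tumor and 8.66 ± 4.85 RPKM in healthy cells, had a log2 fold change of 1.30 that did not pass (edgeR adjusted p = 0.0526).

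**Figure D3:**
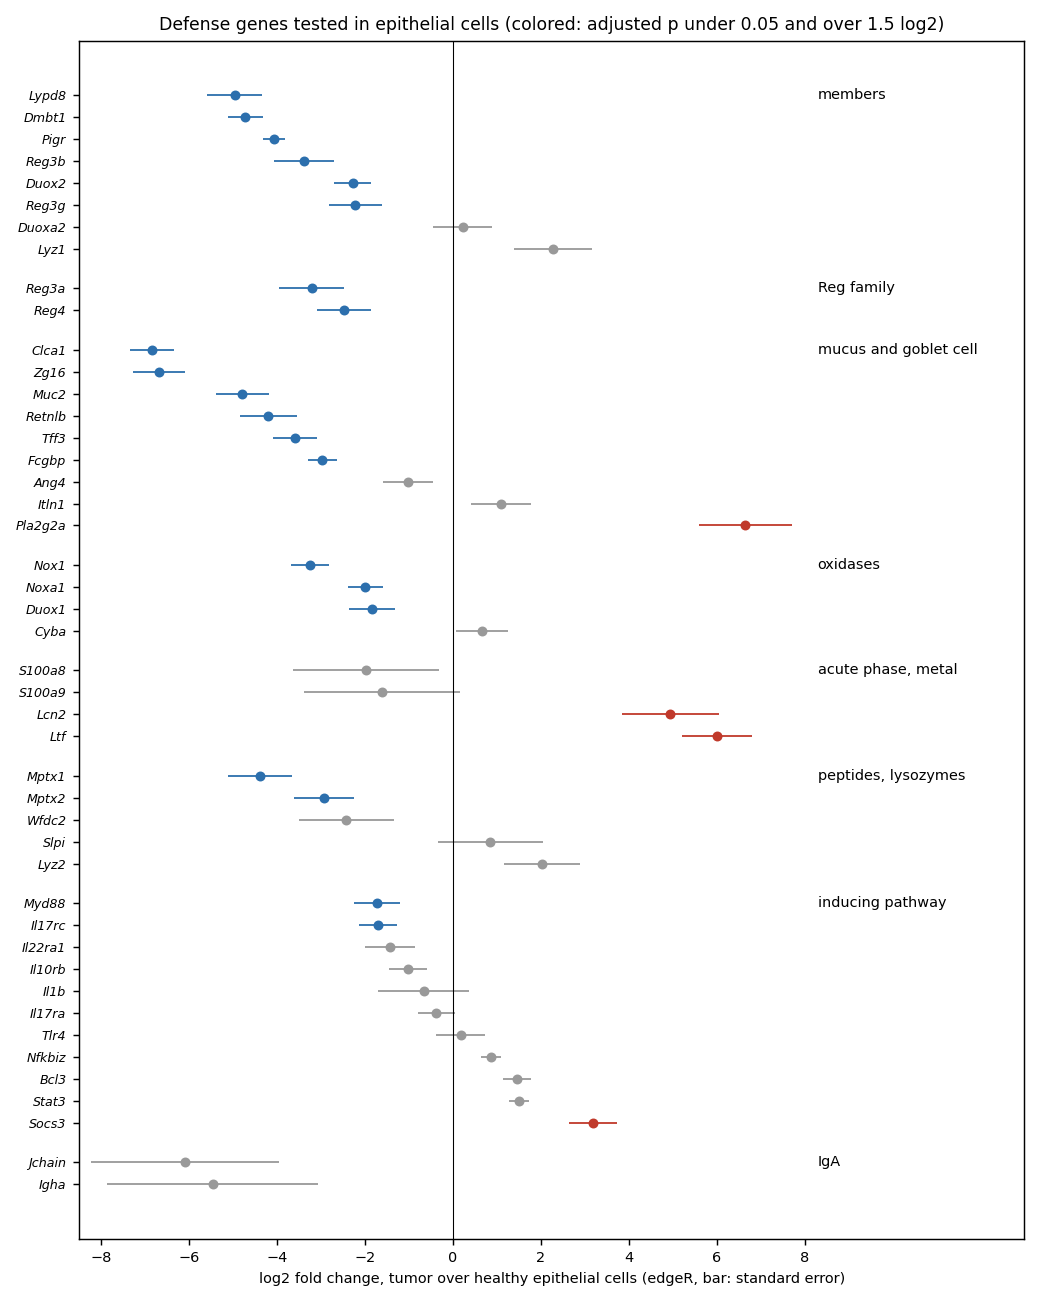
Log2 fold change of tumor over healthy epithelial cells with its standard error (edgeR) for the members and the 7 lists, as far as they were tested. Genes in blue were called lower and genes in red higher. Clca1 lies at -6.84, Lypd8 at -4.96 and Pla2g2a at 6.65.

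In tumor stromal cells the same genes were measured together with the epithelial markers. Mean levels in tumor stromal against tumor epithelial cells were 1.80 against 5.66 RPKM for Reg3b, 0.489 against 1.47 for Reg3g, 0.304 against 0.436 for Duox2, 0.235 against 0.792 for Duoxa2 and 3.85 against 9.36 for Pigr. Those of Dmbt1 were 6.75 against 15.5 RPKM, of Lypd8 50.8 against 66.6, of Saa1 0.0663 against 0.0582 and of Lyz1 64.2 against 54.0. Of the 10 genes, only Saa3 passed the test between these sorts (edgeR contrasts over 16 tumor libraries, in which 4.08% of 19026 genes were called lower in epithelial cells). Saa3 was at 0.225, 0.0402, 0.699 and 1.90 RPKM in tumor stromal cells, in every library above the tumor epithelial range of 0.0107 to 0.0301 RPKM, and was at least 8.19-fold lower in tumor epithelial cells (edgeR adjusted p = 0.0121), a call that was lost without tumor epithelial replicate 4 (0.0545) and in limma-voom (limma adjusted p = 0.242). Its counts in tumor stromal replicates 1 to 4 were 7, 1, 22 and 57, against 1 or none in tumor epithelial libraries. Replicate 2 thus lay under the floor of 3 counts, and the bound was carried by replicates 3 and 4. Against healthy stromal cells, only Lyz1 was called, at 107.1, 45.3, 48.3 and 56.1 RPKM in tumor and 2.56, 0.730, 1.77 and 14.2 RPKM in healthy stromal cells. No tumor library reached down to the healthy range. Its log2 fold change was 4.07 (standard error 0.924, edgeR adjusted p = 0.0290), in a comparison that called 3.39% of 19081 genes higher. The log2 fold changes that did not pass were 4.18 for Lypd8, 3.44 for Reg3g, 2.11 for Reg3b, 2.02 for Pigr, 2.00 for Dmbt1, 1.32 for Saa3 and 1.16 for Duox2 (edgeR adjusted p from 0.125 for Duox2 to 0.502 for Dmbt1). Duoxa2, at 0.235 against 0.0315 RPKM on average, and Saa1, at 0.0663 against 0.0655 RPKM, were not kept by the filter. The call was lost without tumor replicate 1 (edgeR adjusted p = 0.0589) or 2 (0.0519) or healthy replicate 1 (0.0805), 2 (0.0543) or 3 (0.0679). Without healthy stromal replicate 4, 6 genes were called higher in tumor stromal cells, Lypd8 by 8.89, Reg3b by 8.06, Reg3g by 7.74, Dmbt1 by 7.16 and Pigr by 6.98 on the log2 scale beside Lyz1. Without tumor stromal replicates 1 and 2, the libraries with the most epithelial markers, 0 were called by edgeR, with 3 at an unadjusted p under 0.05 and Lyz1 at an adjusted p of 0.0752. Without those 2 and healthy replicate 4 together, 6 were called. That fit called 2322 of 20482 genes in either direction, against 1602 of 19081 with all libraries. Leaving out 1 library at a time called 827 to 1761 genes. Among healthy stromal libraries, replicate 4 was highest in epithelial markers and in Lypd8, Reg3b, Reg3g, Dmbt1, Pigr and Lyz1. It was not highest in Duox2, Duoxa2, Saa1 or Saa3. Among tumor stromal libraries, replicate 1 was highest in the markers and in Pigr, Reg3b, Reg3g, Dmbt1, Duox2, Duoxa2 and Lyz1. Lypd8, Saa1 and Saa3 were highest in replicate 4, which held the fewest epithelial markers. Lypd8 was at 42.6, 24.4, 63.6 and 72.5 RPKM in replicates 1 to 4. The part of epithelial or myeloid RNA in the result was not tested.

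The change from healthy to tumor tissue differed between epithelial and stromal cells for 6 genes in an interaction test over 16 libraries, which called 14.1% of 20901 genes. The log2 difference, epithelial minus stromal, was -9.12 for Lypd8 (standard error 1.90, edgeR adjusted p = 0.00457), -7.33 for Saa3, -6.70 for Dmbt1, -6.05 for Pigr, -5.60 for Reg3g and -3.41 for Duox2. Reg3b missed the threshold at -5.43 (edgeR adjusted p = 0.0538). Without tumor stromal replicates 1 and 2, Dmbt1, Pigr and Reg3g lost the call (edgeR adjusted p = 0.0607, 0.101 and 0.110), and Lypd8, Saa3 and Duox2 had edgeR adjusted p = 0.00867, 5.4e-04 and 0.00481. Saa1, which the filter had left out, was called at -6.46 (edgeR adjusted p = 0.0249). Without healthy stromal replicate 4, 8 genes were called: Reg3b at -11.33 (edgeR adjusted p = 2.3e-04), Saa1 at -6.26 (0.0126), Lypd8, Dmbt1, Pigr and Reg3g at -13.83, -11.87, -10.99 and -9.80, and Saa3 and Duox2 at -7.16 and -3.36. Over all genes, 2548 of 23068 were called without tumor stromal replicates 1 and 2, and 2978 of 21622 without healthy stromal replicate 4. Tumor stromal replicates 3 and 4 still had epithelial markers at 20.5% and 12.2% of the tumor epithelial mean. The part of epithelial RNA in the interaction was not tested.

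In neutrophils, 6 genes were tested between tumor and blood of tumor-bearing mice, of which 5 were higher in tumor and 1 lower. The comparison called 11.9% of 13674 genes higher and 4.41% lower. Lypd8 was at 251.0, 207.3, 98.3 and 7.97 RPKM in tumor neutrophils and at 0.0631, 0.0808, 0.0848 and 0.226 RPKM in blood neutrophils, a log2 fold change of 10.36 (standard error 1.21, edgeR adjusted p = 6.9e-04). Replicate 4, the tumor neutrophil library with the fewest epithelial markers, was the lowest. Dmbt1 rose by 10.77 and Pigr by 6.74 on the same scale (edgeR adjusted p = 0.00124 and 0.00108). Lypd8 in tumor neutrophils was 377%, 312%, 148% and 12% of its mean in tumor epithelial cells, beside epithelial markers at 83.9%, 16.2%, 17.5% and 4.90%. Dmbt1 stood at 194%, 206%, 72.0% and 2.20%, and Pigr at 75.0%, 41.0%, 19.8% and 8.10%. Lypd8 was thus above the marker median in all 4 libraries, Pigr in 3 of them, and Dmbt1 in replicates 1 to 3. The 12 markers themselves spread from 1.56% to 284% in replicate 2 and from 35.2% to 294% in replicate 1, and Lypd8 was above the highest of the 12 markers in each of the 4 libraries, where that marker stood at 294%, 284%, 73.0% and 8.16%. The part of epithelial RNA in these levels was not tested.

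The Reg3 and Duox genes were at or under 3 counts in every blood neutrophil library of tumor-bearing mice and were not kept by the filter. With that floor, tumor neutrophils were at least 30.9-fold higher for Reg3b, at least 7.64-fold for Reg3g, at least 33.7-fold for Duox2 and at least 8.50-fold for Duoxa2. These bounds rest on few libraries. Reg3b had 243, 90, 5 and 2 counts in tumor neutrophil replicates 1 to 4 and Duox2 had 289, 5, 134 and 5. Reg3g was at 0.784 RPKM in replicate 1 and at or below 0.0326 RPKM in the others, and Duoxa2 was at 0.714 and 1.22 RPKM in replicates 1 and 3 and at or below 0.0155 RPKM in the others.

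**Figure D4:**
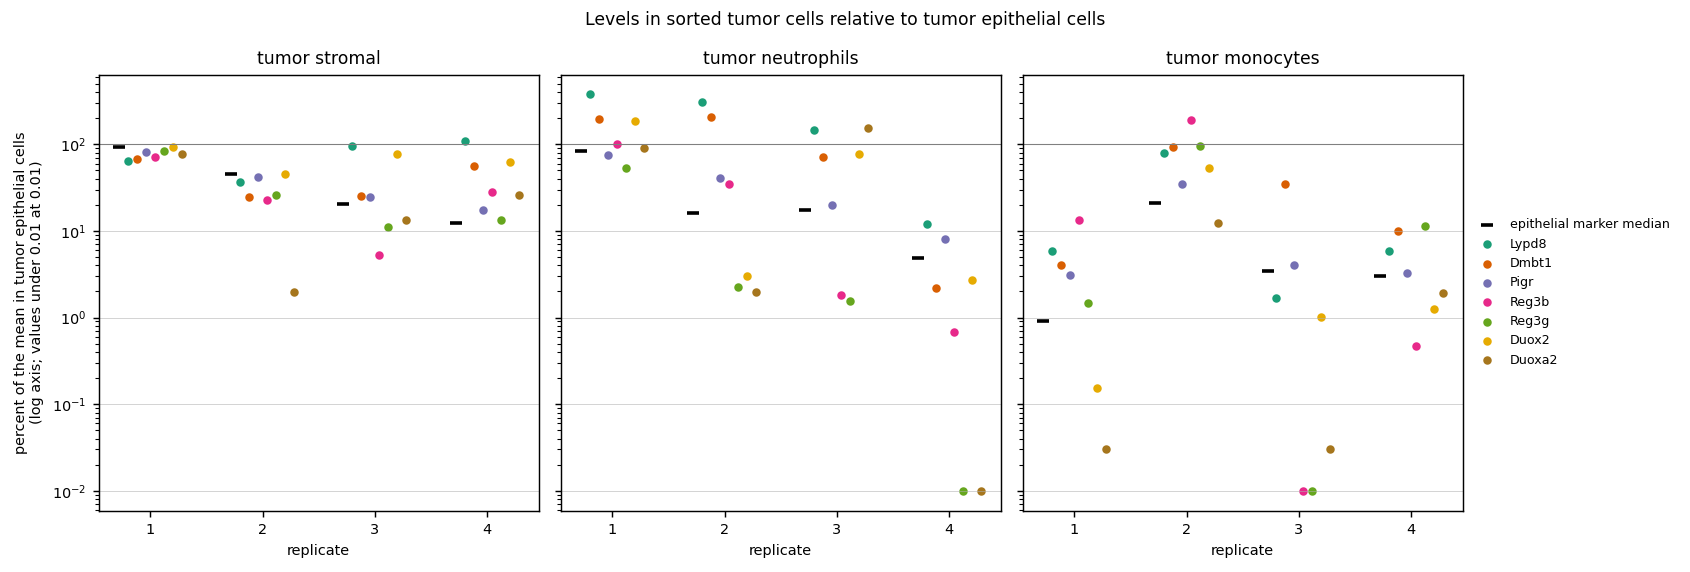
Level of 7 genes and the median of 12 epithelial markers in each tumor stromal, neutrophil and monocyte library, as a percentage of the mean in tumor epithelial cells (log axis, values under 0.01 drawn at 0.01). Lypd8 lies above the marker median in all 4 tumor neutrophil libraries, and in tumor monocytes replicate 2 has the highest marker median, 20.8%.

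The serum amyloid genes were higher in tumor than in blood myeloid cells. Saa3 was at 4.31, 4.09, 8.70 and 8.65 RPKM in tumor neutrophils and at 0.0165, 0.458, 1.31 and 0.0527 RPKM in blood neutrophils of tumor-bearing mice, a rise of 3.80 on the log2 scale (standard error 1.08, edgeR adjusted p = 0.0347). All tumor libraries lay above all blood libraries. The call was lost without tumor replicate 3 (edgeR adjusted p = 0.0690) or 4 (0.0642) or blood replicate 1 (0.0621), 2 (0.0926) or 4 (0.0793). Saa1 rose by 3.20 (standard error 0.752, edgeR adjusted p = 0.0144), from 0.0152 to 0.112 RPKM in blood to 0.408 to 0.595 RPKM in tumor, and was not called without blood replicate 1 (0.0754), 2 (0.0708) or 4 (0.0697). In monocytes Saa3 reached the highest level of any group, at 20.9, 37.4, 52.8 and 17.4 RPKM in tumor against 2.79, 0.341, 8.95 and 4.01 RPKM in blood of tumor-bearing mice. Tumor and blood libraries did not overlap, and the rise was 3.27 (standard error 0.778, edgeR adjusted p = 0.0162), with an edgeR adjusted p of 0.0523 without blood replicate 1. Saa1 rose by 3.29 in monocytes (standard error 0.891, edgeR adjusted p = 0.0288), a call lost without blood replicate 1 (0.0794) or 4 (0.0696) or tumor replicate 2 (0.0624) or 3 (0.0561). Since Saa3 had 1 count or none in tumor epithelial libraries, tumor epithelial cells were at least 145-fold lower in Saa3 than tumor neutrophils and at least 456-fold lower than tumor monocytes, in contrasts that called 17.6% and 14.2% of 19026 genes lower in epithelial cells. The ratio of Saa1 to Saa3 was 0.0518 to 0.172 in the libraries of other groups with enough counts and 0.155 to 4.48 in 3 healthy epithelial libraries.

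Monocytes from tumors had 5 of 6 tested genes higher than those from blood of tumor-bearing mice, in a comparison that called 7.76% of 15280 genes higher and 3.89% lower. Besides Saa1 and Saa3 these were Dmbt1, by 5.76 (edgeR adjusted p = 0.00304), Lypd8, by 4.73 (0.0146), and Pigr, by 4.25 (0.0107) on the log2 scale. Lypd8 was not called by limma-voom (limma adjusted p = 0.0896) or by limma on log2(RPKM + 1) (0.0852), nor Pigr by the latter (0.153). Lypd8 was at 3.86, 52.5, 1.11 and 3.93 RPKM in tumor monocytes and at 0.319 to 1.00 RPKM in blood monocytes. Replicate 2, with epithelial markers at 20.8%, was the highest for Lypd8, Dmbt1, Pigr, Reg3b, Reg3g, Duox2 and Duoxa2. Reg3b was at 10.8 RPKM in that library and at 0.762, 0 and 0.0266 RPKM in replicates 1, 3 and 4. Reg3b, Reg3g and Duox2 were at or under 3 counts in each of these blood monocyte libraries and were at least 50.2-fold, 19.1-fold and 8.93-fold higher in tumor monocytes, bounds carried by replicate 2. The part of epithelial RNA in these values was not tested.

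Lyz1 was the member with the highest level in myeloid cells and was lower in tumor than in blood. In blood monocytes of tumor-bearing mice it was at 1767 to 3156 RPKM, and in tumor monocytes at 736, 843, 893 and 1004 RPKM, without overlap. The log2 fold change was -1.18 (standard error 0.219, edgeR adjusted p = 0.00462), which passed the p threshold but not that on the fold. In neutrophils it fell from 421, 405, 565 and 557 RPKM in blood to 61.7, 114.7, 188.2 and 251.6 RPKM in tumor, by 1.60 on the log2 scale (standard error 0.480, edgeR adjusted p = 0.0415). Here too the groups did not overlap, but leaving out any of the 8 libraries removed the call, with edgeR adjusted p values up to 0.10 and, without tumor replicate 1, a fold of -1.30 (0.00779) that missed the fold threshold. Tumor neutrophil replicate 1, the lowest, was the library with the fewest neutrophil markers. Tumor epithelial cells were lower in Lyz1 than tumor neutrophils by 2.62 and than tumor monocytes by 4.39 (edgeR adjusted p = 0.00232 and 9.9e-05).

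**Figure D5:**
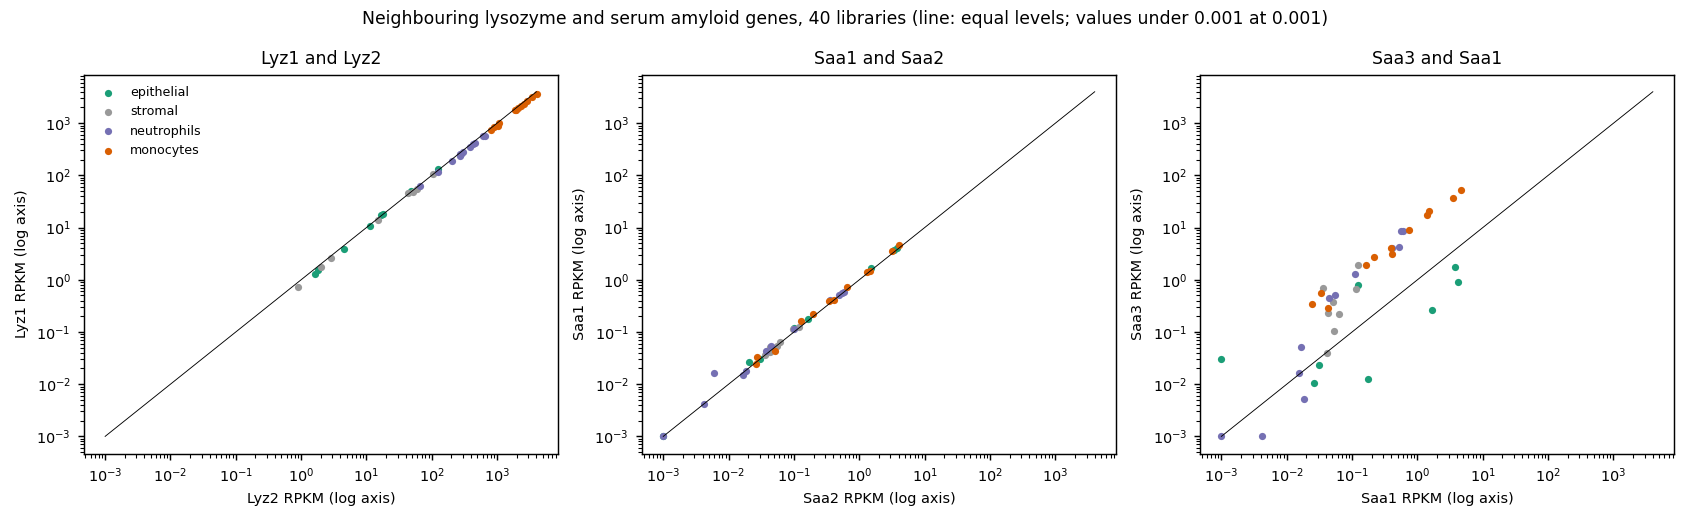
RPKM of Lyz1 against Lyz2, Saa1 against Saa2 and Saa3 against Saa1 in the 40 libraries, colored by cell type, both axes logarithmic, values under 0.001 drawn at 0.001 and a line at equal levels. Lyz1 and Saa1 run along the line with their neighbor, while Saa3 lies above Saa1 in most myeloid libraries and below it in 3 healthy epithelial libraries.

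The measured Lyz1 level tracked that of Lyz2, the macrophage lysozyme gene, in every cell type. The ratio of Lyz1 to Lyz2 lay between 0.802 and 1.05 in the 40 libraries, and the Pearson r of log2(RPKM + 1) was 0.9998. Tumor epithelial cells were at 1.02 to 1.05, healthy epithelial cells at 0.805 to 0.942 and tumor stromal cells at 0.926 to 1.04. Blood cells of tumor-bearing mice were at 0.876 to 0.938. Saa1 and Saa2 had a ratio of 1.02 to 1.13 where counts allowed it and the same r of 0.9998. With these files the 2 lysozyme genes, and likewise Saa1 and Saa2, cannot be told apart, so each value printed for Lyz1 and Saa1 may hold reads of the other gene.

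In blood, no member was called between tumor-bearing and healthy mice. In neutrophils only Lyz1 had enough counts, at 421, 405, 565 and 557 RPKM in tumor-bearing and 234, 279, 252 and 358 RPKM in healthy mice. Every tumor-bearing library was above every healthy one, and the log2 fold change was 0.83 (standard error 0.228, edgeR adjusted p = 0.0568, with 1 gene at an unadjusted p under 0.05). Limma-voom and DESeq2 did not call it either. Over all genes, edgeR called 4.01% of 13360. Reg3b, Reg3g, Duox2, Duoxa2, Dmbt1, Lypd8, Pigr, Saa1 and Saa3 were not kept by the filter, the highest mean being that of Saa3, at 0.461 RPKM in tumor-bearing and 0.129 RPKM in healthy mice. In monocytes, 5 genes were tested, 0 had an unadjusted p under 0.05 in edgeR, limma-voom and DESeq2 called 0, and edgeR called 0.209% of the 15313 genes of the whole table. Saa3 stood at 1.57 on the log2 scale (standard error 0.927, edgeR adjusted p = 0.627), Dmbt1 at -0.24, Lypd8 at -0.02, Pigr at -0.01 and Lyz1 at -0.00485. Reg3b, Reg3g, Duox2, Duoxa2 and Saa1 were not kept by the filter. Lyz1 was at 2345 ± 679 RPKM in tumor-bearing and 2507 ± 726 RPKM in healthy mice (SD, n = 4 each).

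Levels were also compared between cell types of the tumor. Against tumor neutrophils, 0 of 10 genes were called higher in tumor epithelial cells by edgeR or DESeq2 and 1 by limma-voom, where 3.93% of 19026 genes were, and Lyz1, Saa1 and Saa3 were lower. These 3 were also the only members with an unadjusted p under 0.05 in edgeR. The others stood at 2.37 for Reg3g, 0.83 for Reg3b, 0.67 for Pigr, -0.04 for Duox2, -0.09 for Duoxa2, -1.23 for Dmbt1 and -2.07 for Lypd8. The values of Duox2, Duoxa2 and Dmbt1 changed sign under other settings. Leaving out tumor neutrophil replicate 1 made Reg3g higher in epithelial cells by 5.15 (edgeR adjusted p = 0.0292). Against tumor monocytes, Duoxa2 and Pigr were higher in epithelial cells by 4.35 and 2.92 (edgeR adjusted p = 0.0345 and 0.0110), where 14.9% of genes were called higher, and Lyz1, Saa1 and Saa3 were lower. Duox2, Lypd8, Reg3g, Dmbt1 and Reg3b did not pass, at 2.56, 1.81, 1.64, 1.22 and 0.72. The call of Duoxa2 was lost without tumor monocyte replicate 1 (edgeR adjusted p = 0.0862), 3 (0.0796) or 4 (0.0839) or tumor epithelial replicate 2 (0.0646) or 3 (0.0697). Without tumor monocyte replicate 2, Duox2 and Lypd8 were called as well, at 6.30 and 4.11 (edgeR adjusted p = 0.00374 and 0.00438).

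The genes most like each member were taken over the 40 libraries. Among 13958 genes with a mean of at least 1 RPKM in a group, Dmbt1 was closest to Cdhr5 (Pearson r of 0.972), a brush border cadherin, and to Muc2 (0.970). Pigr was closest to Ugt2b34 (0.979) and Muc2 (0.978), Lypd8 to Dmbt1 (0.960) and Krt20 (0.953), and Duox2 to Adgrg7 (0.952) and Hnf4a (0.947). The closest gene of Duoxa2 was Cystm1, at only 0.800, and that of Saa3 was Sh2b2, at 0.864. All these values are over libraries that share cell type and carried-over RNA.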

How the data were processed

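RNA had been amplified into double-stranded cDNA before library preparation and single-end sequencing. The authors mapped reads to mm10 with Bowtie2 and counted genes with HTSstation, and the deposited tables hold expected counts, which were rounded here, and RPKM. The library scale implied by the RPKM was 0.642 to 1.55 times that of the summed counts. The annotation release, strand use and treatment of multiply mapped reads are not given in the sources used here. Symbols came from GENCODE M21.

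For each comparison, counts of its libraries went into edgeR 4.0.16 (R 4.3.3), TMM normalization, filterByExpr and robust quasi-likelihood fits, with Benjamini-Hochberg adjustment over all genes tested. Tumor cell types were contrasts over 16 libraries. The study used limma-voom, run as an alternative (limma 3.58.1) with DESeq2 1.42.0. The fits were tested on simulated counts with the same spread for every gene and no carried-over RNA. That does not test them under the conditions of these libraries. All 10 members are named in each comparison. Of the other lists, genes called between tumor and healthy epithelial cells and the most abundant gene of each list were eligible, and Stat3, Il22ra1, Krt20, Vil1, S100a8, S100a9 and Lyz2 were picked with their values known. The members and lists were chosen with earlier results of these data known. Each title names an animal or a pool. 2-sided exact permutation tests used mean RPKM.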

Additional observations from a re-analysis of the deposited data

Results flagged for a closer look

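Of 85 sets of 4 libraries examined for the 10 genes, 16 held a library whose gap to the nearest other was wide for the range of its group. The cut for the gap gives about 1 in 20 for independent, normally distributed values. The same libraries recur across genes here, so 16 of 85 cannot be set against that rate. Each flagged library was the highest of its group. In tumor monocytes it was replicate 2, with epithelial markers at 20.8%: Reg3b at 10.8 RPKM, Reg3g at 1.41, Duox2 at 0.234, Duoxa2 at 0.0978, Lypd8 at 52.5 and Pigr at 3.26 RPKM. In healthy stromal cells it was replicate 4 for Reg3b (2.08 RPKM), Reg3g (0.223), Dmbt1 (8.11), Lypd8 (13.1), Pigr (4.69) and Lyz1 (14.2), a library with epithelial markers at 13.2%, and replicate 2 for Saa1 (0.115 RPKM). The part of epithelial RNA in these values was not tested. Reg3g stood apart in tumor neutrophil replicate 1 (0.784 RPKM), Lypd8 in blood neutrophil replicate 4 of tumor-bearing mice (0.226 RPKM) and Saa3 in healthy blood neutrophil replicate 2 (0.509 RPKM).

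The change from healthy to tumor tissue differed between epithelial and stromal cells, by an edgeR interaction test added after the data were seen, for Lypd8 (-9.12 on the log2 scale, epithelial minus stromal), Saa3 (-7.33), Dmbt1 (-6.70), Pigr (-6.05), Reg3g (-5.60) and Duox2 (-3.41). Dmbt1, Pigr and Reg3g lost this call without tumor stromal replicates 1 and 2. The part of epithelial RNA in the stromal libraries was not tested.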

How the results depend on the processing

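Of the members' log2 fold changes in the 10 comparisons, recomputed under alternatives, 1397 kept their direction and side of the p threshold, 66 lost it, 51 gained it and 60 changed sign, all of these for 11 values that had not passed the test. Of the 60, those of Duox2 and Duoxa2 between tumor epithelial cells and tumor neutrophils were 1.35 and 1.58 in limma-voom, 0.127 and 0.0983 in DESeq2, 0.124 and 0.0918 with DESeq2 size factors, 0.170 and 0.166 with no filter, 0.591 and 0.729 with the replicate number as a block, 0.8288 and 0.486 with the animal as a block, 0.174 and 0.302 in limma on log2(RPKM + 1), 0.866 and 1.19 on log2(RPKM + 0.1), 0.115 and 0.104 without mitochondrial genes and 0.208 each in the fit of all 40 libraries. That of Dmbt1 was 0.0639 in limma-voom, 0.336 and 0.678 on the 2 RPKM scales and 0.140 with the animal as a block. Without tumor stromal replicates 1 and 2, Lypd8 and Lyz1 between tumor epithelial and stromal cells were -0.00916 and 0.0512. Between blood monocytes, Lypd8 was 0.0716 in limma-voom, 9.9e-04 in DESeq2, 0.00245 with its size factors, 0.148 with the block and 0.0133 on log2(RPKM + 0.1), Pigr 0.00205 in DESeq2 and 0.00564 with its size factors, and Lyz1 0.0181 in limma-voom, 0.0106 with at least 10 counts in every library and 0.00129 without mitochondrial genes. Without each library in turn the ranges were -0.0698 to 0.901 for Duoxa2 between epithelial cells, -0.429 to 0.819 and -0.5004 to 1.31 for Duox2 and Duoxa2 against tumor neutrophils, -0.179 to 0.565 and -1.28 to 0.235 for Lypd8 and Saa1 against tumor stromal cells, and -0.586 to 0.0925, -0.329 to 0.375, -0.178 to 0.339 and -0.198 to 0.244 for Dmbt1, Lypd8, Pigr and Lyz1 between blood monocytes. Leaving out each library in turn gave 6 to 8 genes called between tumor and healthy epithelial cells, 0 to 6 between stromal cells, 3 to 5 in neutrophils, 3 to 5 in monocytes, 7 to 10 between healthy cell types, and, for tumor epithelial cells, 0 to 1 against stromal cells, 3 to 4 against neutrophils and 4 to 7 against monocytes. Over all genes, the same fits called 2196 to 2801 between epithelial cells and 827 to 1761 between stromal cells. They called 1638 to 3624 in neutrophils, 1509 to 1848 in monocytes and 5249 to 7014 between healthy cell types. For tumor epithelial cells they called 285 to 1204, 3216 to 6875 and 4572 to 6565, in the order above. Between tumor and healthy stromal cells, where edgeR called 1, limma-voom called 4, DESeq2 2, limma on log2(RPKM + 1) and on log2(RPKM + 0.1) 2 each and a fit of all 40 libraries 2. Of all genes these fits called 1602, 1511, 2713, 547, 1882 and 2267, in that order. There, 0 were called without tumor replicates 1 and 2, and 6 without these and healthy replicate 4, an alternative chosen after seeing the data. Over all genes these fits called 1192 and 2322. Requiring 10 counts in every library left fewer members in the test of these comparisons. Called were 1 of 1 tested in neutrophils, 3 of 4 in monocytes and 1 of 2 between healthy cell types. For tumor epithelial cells, of 4 tested, 0 were called against stromal cells, 1 against neutrophils and 2 against monocytes. Over all genes these fits called 1270 of 7194, 1256 of 10263, 2245 of 10560 and, of 6840, 204, 2227 and 1755. In monocytes limma on log2(RPKM + 1) called 2 and the fit of all 40 libraries 8, and between healthy cell types limma on log2(RPKM + 1) called 5. Of all genes these called 520, 2803 and 2110. The edgeR fits called 1781 in monocytes and 5702 between healthy cell types. Against tumor stromal cells limma-voom and limma on both RPKM scales called 0, and against tumor monocytes limma-voom and limma on log2(RPKM + 0.1) called 8 each. Of all 19026 genes, these last 2 called 6312 and 5026, against 5526 in edgeR. Those against tumor stromal cells called 169, 77 and 299 genes, against 779 in edgeR. The cause was not tested, except that fewer genes were tested under the stricter filter.

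With the replicate number of the labels as a block, 5 genes were called between tumor and healthy epithelial cells, 6 between stromal cells, 3 in tumor against blood monocytes and 0 between tumor epithelial and stromal cells. Over all genes these fits called 2267, 1396, 1376 and 168, against 2476, 1602, 1781 and 779 without the block. In no comparison did every pair of same-numbered libraries correlate above 0.1 (range -0.151 to 0.251), which cannot show whether they share an animal. By title, animal T17 gave tumor and blood monocyte replicate 1, and animal Wta gave healthy epithelial and stromal replicate 4. Animal T5 gave tumor neutrophil replicate 4 and blood neutrophil replicate 2. The animal was not a block in those comparisons. Tumor cell types partly came from the same animals by title, and a replicate block on the titled animal left the counts at 1, 3 and 5. Over all genes that block called 355, 2506 and 3206, against 779, 4102 and 5526 without it. Xist differed within some titled animals, so that block may not follow the animal. Low counts kept Saa1, Duoxa2, Reg3b, Reg3g, Duox2 and others out of the test in some comparisons.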
